A study of Mus musculus with 6 samples.

Results

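The 9 genes described here encode parts of the junctions that join epithelial cells, 5 transmembrane proteins of the tight junction, its scaffold ZO-1, and E-cadherin with its partners β-catenin and α-catenin. They were chosen by symbol through their Ensembl identifiers, and all 9 were found among the 55774 genes of the deposited table. In the mouse blastocyst, the outer cells form the trophectoderm, the first epithelium of the embryo. E-cadherin holds its cells together at the adherens junction, where the catenins link it to actin. The tight junctions seal the spaces between the cells, so that fluid pumped inward is retained and the cavity can expand.

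RNA had been sequenced from 6 pools of 10 blastocysts, 3 in each of 2 groups, from ICR mouse embryos labelled as wild type (WT). The females were aged 6 to 8 weeks and the males 8 to 10 weeks, and the embryos were taken from the oviduct at the 2-cell stage and cultured for 75 hours in CZB medium. The medium of the oEV-EMT group held vesicles of Fallopian tube fluid from donors with endometriosis, and that of the oEV-ctrl group held such vesicles from donors without it. The sample labels name uterine fibroids as the condition of the control donors, whereas the methods name cervical intraepithelial neoplasia. Both groups received human vesicles on mouse embryos. The authors state that they could not sequence blastocysts cultured without vesicles, so no group without vesicles is available. The labels do not say whether the pools came from separate cultures, so the p-values measure the spread between these pools.

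The values are FPKM, fragment numbers divided by the length of the transcript and the size of the library, so that levels can be compared between genes. The total read number is unknown, but the steps between low values put the depth of the other libraries at 1.21 to 2.07 times that of oEV-ctrl 1. By this reading oEV-EMT 1 was the deepest. The reading rests on 41 to 70 genes per library at the commonest ratio, of 3741 to 4325 compared. A single unannotated entry held 15.3% to 31.5% of the summed FPKM. Over the 11924 genes tested, the median log2 fold change between oEV-EMT and oEV-ctrl was 0.17, which median-of-ratios scaling reduced to 0.01. Changes are therefore also given relative to this median. The markers listed for trophectoderm, epiblast and primitive endoderm, the 3 lineages of the blastocyst, all had signal, with 0 of them listed at 0 throughout.

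Of the 9 genes, *Cldn4* and *Ocln* separated the groups, with every oEV-EMT pool above every oEV-ctrl pool and means that differed 2.48 and 1.90 times. The other claudins and *F11r* had higher means in oEV-EMT, with overlap between the groups. The means of *Cdh1*, *Tjp1* and *Ctnnb1* were level or lower in oEV-EMT, and that of *Ctnna1* was higher, all with overlap. With limma and Benjamini-Hochberg adjustment, 0 of the 9 passed both thresholds, an adjusted p of 0.05 and a log2 change of 1 in either direction, as did 0 of the 11924 genes tested (0.0%). *Cldn4* alone exceeded 1 on the log2 scale, as did 2.31% of all genes, and 0 of the 9 were below -1, against 0.696%. Before adjustment 3 of the 9, *Cldn4*, *Ocln* and *Cldn6*, were higher with p up to 0.05 and 0 were lower, against 12.8% higher and 2.55% lower among all genes. Without oEV-EMT 1, *Cldn6* (unadjusted p = 0.13 from limma) was no longer among them and *Cdh1* was lower (unadjusted p = 0.0460 from limma). *Cldn6* also dropped out without oEV-EMT 2, oEV-ctrl 1 or oEV-ctrl 2 (unadjusted p = 0.102, 0.0923 and 0.081 from limma). The 2 members higher without overlap compare with 18.1% of all genes, and the 0 lower without overlap with 4.34%. After median-of-ratios scaling these shares of all genes were 9.94% and 10.2%, and *Cldn4* and *Ocln* remained without overlap.

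**Figure D1:**
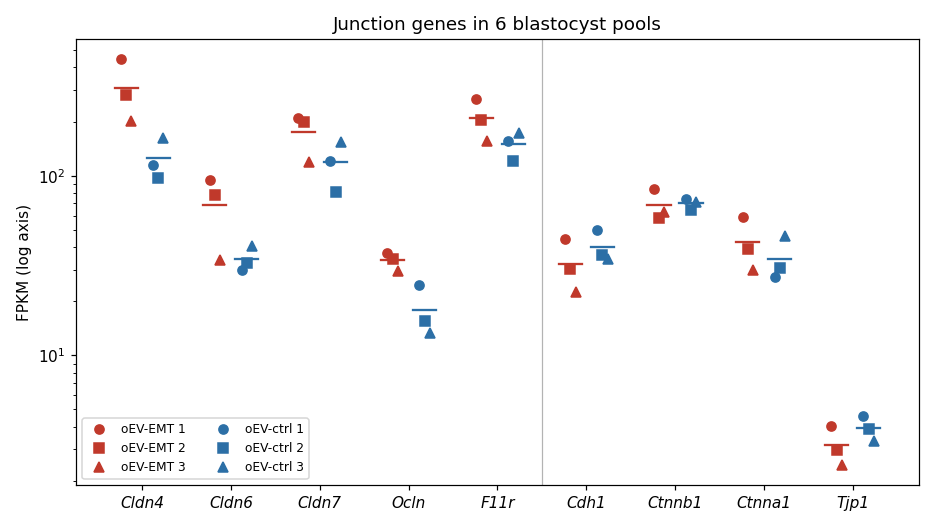
FPKM of the 9 junction genes on a log axis in the 3 oEV-EMT pools (red) and the 3 oEV-ctrl pools (blue), with a short bar at each group mean and a symbol for the replicate number. *Cldn4* and *Ocln* show no overlap between the groups, and the red circles of oEV-EMT 1 are the highest red points in all 9 genes.

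Claudins are the 4-span membrane proteins that form the strands of the tight junction and set which ions pass. *Cldn4* (ENSMUSG00000047501) is at 134945119 to 134946934 of chromosome 5 (GRCm38, minus strand). The oEV-EMT pools had 445, 282 and 201 FPKM of *Cldn4* and the oEV-ctrl pools 115, 96.5 and 163. All oEV-EMT libraries lay above all oEV-ctrl libraries, although the oEV-EMT values themselves spread over more than a factor of 2. The means were 309.7 ± 124 and 125 ± 34.5 (SD, n = 3 each). This was a log2 fold change of 1.26 for *Cldn4* (standard error 0.30, adjusted p = 0.157 from limma), and 1.09 relative to all genes. The exact two-sided permutation test gave p = 0.1, and a comparison of 3 with 3 can give none smaller. Of the genes tested, 0.998% had a higher log2 fold change than *Cldn4*. Without oEV-EMT 1 the log2 fold change of *Cldn4* was 0.96, and leaving out each other library kept it at or above that value.

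*Ocln* (ENSMUSG00000021638) encodes occludin, another 4-span protein of the tight junction strand, and is at 100496507 to 100552718 of chromosome 13 (minus strand). Its FPKM was 37.3, 34.3 and 29.6 in oEV-EMT and 24.5, 15.5 and 13.4 in oEV-ctrl. The groups did not overlap, and relative to their mean the oEV-EMT libraries lay closer together than for any other member. The means were 33.8 ± 3.87 and 17.8 ± 5.91 (SD, n = 3 each). The log2 fold change of *Ocln* was 0.92 (standard error 0.25, adjusted p = 0.164 from limma), or 0.75 relative to all genes (exact permutation test, p = 0.1). After median-of-ratios scaling the gap between the groups of *Ocln* was narrow, with 29.9 in the lowest oEV-EMT library and 27.0 in the highest oEV-ctrl library.

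The 250 bases before the annotated start of *Cldn4* and *Ocln*, the members without overlap, are shown with those of *Cldn7*, a claudin whose groups overlapped. They are RefSeq promoter sequences of GRCm38.p6, 5′ to 3′ on the strand of the gene. The windows are chr5:134946935-134947184 on the minus strand for *Cldn4*, chr13:100552719-100552968 on the minus strand for *Ocln* and chr11:69964529-69964778 on the plus strand for *Cldn7*. No annotated exon lies in them.
Cldn4: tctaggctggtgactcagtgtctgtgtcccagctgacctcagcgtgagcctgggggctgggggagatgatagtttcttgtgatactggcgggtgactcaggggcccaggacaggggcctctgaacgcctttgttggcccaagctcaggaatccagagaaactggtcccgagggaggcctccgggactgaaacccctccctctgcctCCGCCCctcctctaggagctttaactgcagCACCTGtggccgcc
Ocln: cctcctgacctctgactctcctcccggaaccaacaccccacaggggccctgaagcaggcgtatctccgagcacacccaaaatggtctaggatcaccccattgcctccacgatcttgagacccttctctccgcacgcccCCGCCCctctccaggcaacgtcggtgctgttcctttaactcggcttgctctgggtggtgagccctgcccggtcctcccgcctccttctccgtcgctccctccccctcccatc
Cldn7: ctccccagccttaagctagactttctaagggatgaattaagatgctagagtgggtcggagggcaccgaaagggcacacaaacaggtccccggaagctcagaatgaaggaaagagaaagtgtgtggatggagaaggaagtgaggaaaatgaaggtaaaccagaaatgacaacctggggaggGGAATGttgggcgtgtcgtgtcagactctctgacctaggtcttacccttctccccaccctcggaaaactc
Capitals mark matches, on either strand, to the motifs searched. The windows of *Cldn4* and *Ocln* hold GGGCGG, the box of Sp and Krüppel-like factors. That of *Cldn4* also holds CAGGTG, the E-box that Snail and Zeb repressors bind, and that of *Cldn7* holds GGAATG, the box of TEAD factors. The CCAAT box, the TATA box TATAAA and the AP-2 motif GCCNNNGGC were searched as well and were not found in these 3 windows. The table of promoters held 10 windows for 7 of the 9 genes, without *Cdh1* and *Ctnna1*. *Ocln* and *Cldn7* each have a further window there, at another annotated start, which is not shown. Both further windows hold the E-box and the box of Sp and Krüppel-like factors, and that of *Ocln* also matches other motifs searched. Neither of these boxes therefore sets *Cldn4* and *Ocln* apart from *Cldn7*. The windows of *Ctnnb1* overlap each other, as do those of *Ocln*, so a match in shared bases counts in both and the 10 are not independent. GGGCGG was found in 9 of the 10 windows, against 32.7% of all 32851 windows. CAGGTG was found in 5 of the 10, against 17.2%, and AACCGGTT, a grainyhead motif, in 0 of 10, against 0.116%. Such matches describe the sequence and are not evidence of binding.

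*Cldn6* (ENSMUSG00000023906), a claudin of embryonic epithelia, is at 23679249 to 23682446 of chromosome 17 (plus strand). Its values were 94.1, 77.7 and 34.0 FPKM in oEV-EMT and 30.0, 32.8 and 40.6 in oEV-ctrl. Both oEV-EMT 1 and oEV-EMT 2 exceeded every oEV-ctrl library, while oEV-EMT 3 lay among them. The log2 fold change of *Cldn6* was 0.86 (standard error 0.35, adjusted p = 0.281 from limma). Without oEV-EMT 3 it was 1.30, and without oEV-EMT 1 it was 0.58. *Cldn7* (ENSMUSG00000018569) is at 69964779 to 69967885 of chromosome 11 (plus strand) and had 209.7, 199 and 119 FPKM in oEV-EMT and 121, 81.6 and 153 in oEV-ctrl. Again oEV-EMT 3 fell within the range of oEV-ctrl, and the log2 fold change of *Cldn7* was 0.57 (standard error 0.29, adjusted p = 0.376 from limma). Leaving out 1 library moved it between 0.33, without oEV-ctrl 2, and 0.83, without oEV-EMT 3.

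*F11r* (ENSMUSG00000038235) encodes the junctional adhesion molecule JAM-A, an immunoglobulin-like protein that helps to place the tight junction. It is at 171437535 to 171464603 of chromosome 1 (plus strand). Its FPKM was 267, 203 and 155 in oEV-EMT and 155, 121 and 172 in oEV-ctrl, means of 208 ± 56.4 and 149 ± 26.3 (SD, n = 3 each). The library oEV-EMT 3 lay just under oEV-ctrl 1, and the log2 fold change of *F11r* was 0.46 (standard error 0.24, adjusted p = 0.393 from limma). It was 0.26 without oEV-EMT 1, and for *F11r* median-of-ratios and upper quartile scaling gave 0.26 and 0.19.

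*Tjp1* (ENSMUSG00000030516) encodes ZO-1, the scaffold that binds claudins, occludin and JAM-A at the membrane and connects them to actin. It is at 65296165 to 65527781 of chromosome 7 (minus strand). It had the lowest level of the 9, with 4.04, 2.97 and 2.45 FPKM in oEV-EMT and 4.57, 3.87 and 3.33 in oEV-ctrl. The groups overlapped, with a log2 fold change of -0.26 for *Tjp1* (standard error 0.23, adjusted p = 0.627 from limma), which ran from -0.40 without oEV-EMT 1 to -0.13 without oEV-EMT 3.

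*Cdh1* (ENSMUSG00000000303), at 106603351 to 106670246 of chromosome 8 (plus strand), encodes E-cadherin. Its FPKM was 44.4, 30.1 and 22.4 in oEV-EMT and 49.6, 36.1 and 34.3 in oEV-ctrl. The lowest pair of libraries was oEV-EMT 2 and oEV-EMT 3, but oEV-EMT 1 exceeded 2 of the oEV-ctrl libraries. The log2 fold change of *Cdh1* was -0.33 (standard error 0.27, adjusted p = 0.585 from limma), or -0.51 relative to all genes. For *Cdh1* it was -0.58 without oEV-EMT 1, -0.11 without oEV-EMT 3 and -0.17 without oEV-ctrl 1.

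*Ctnnb1* (ENSMUSG00000006932) encodes β-catenin, which binds the tail of E-cadherin and is also the effector of Wnt signalling, and is at 120929216 to 120960507 of chromosome 9 (plus strand). It had 84.7, 57.8 and 62.8 FPKM in oEV-EMT and 74.2, 64.3 and 71.8 in oEV-ctrl. The log2 fold change of *Ctnnb1* was -0.05 (standard error 0.21, adjusted p = 0.928 from limma), and its sign turned under scaling to a fixed total. Exons of *Ulk4* on the opposite strand cover 759 of the 5192 exonic bases of *Ctnnb1*, but *Ulk4* itself was at 0.0509 to 0.494 FPKM. *Ctnna1* (ENSMUSG00000037815), at 35118859 to 35254779 of chromosome 18 (plus strand), encodes α-catenin, which carries the complex to actin. Its FPKM was 58.6, 39.3 and 30.0 in oEV-EMT and 27.2, 30.5 and 46.0 in oEV-ctrl, and the log2 fold change of *Ctnna1* was 0.28 (standard error 0.29, adjusted p = 0.674 from limma). This value rested on single libraries, being 0.027 without oEV-EMT 1 and 0.50 without oEV-ctrl 3. Of stretches of 50 bases, *Ctnnb1* shared 12.3% with *Ulk4*, *F11r* 0.868% and *Ctnna1* 0.783% with other annotated genes, and the other 6 members shared 0%.

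**Figure D2:**
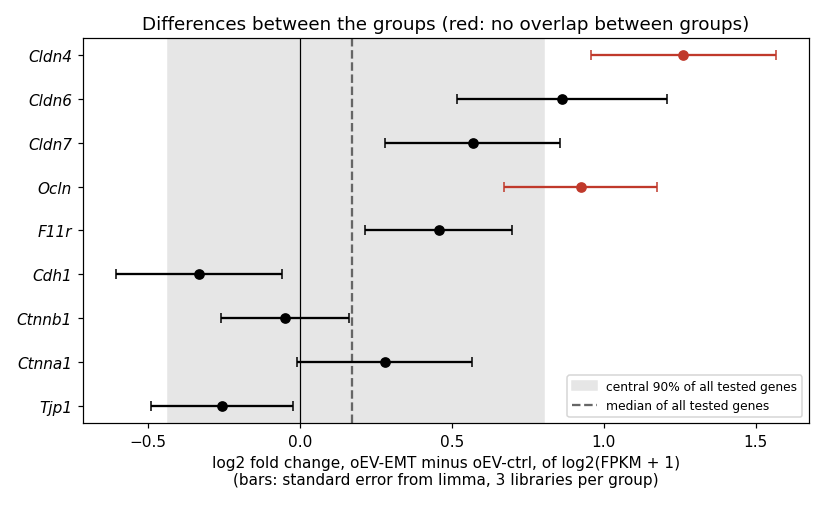
Log2 fold change of each junction gene on the log2(FPKM + 1) scale, with the standard error from limma (3 libraries per group), over the central 90% of all 11924 tested genes (grey, -0.44 to 0.80) and their median (dashed, 0.17). The 5 tight junction membrane genes lie right of the dashed line, and *Cldn4*, *Cldn6* and *Ocln* lie right of the grey band.

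In FPKM, the order of the levels differed in part between the groups. *F11r*, *Cldn4* and *Cldn7* were the highest in both, with means of 118 to 309.7, and *Tjp1* was the lowest. *F11r* led in oEV-ctrl and *Cldn4* in oEV-EMT. In oEV-EMT, *Cldn4* exceeded *F11r* in 3 of 3 libraries, and in oEV-ctrl *F11r* exceeded *Cldn4* in 3 of 3. Neighbours in the order whose ranges over libraries overlapped were *F11r*, *Cldn4* and *Cldn7* in both groups. In oEV-ctrl these were also *Cdh1* with *Ctnna1* and *Ctnna1* with *Cldn6*. In oEV-EMT all neighbours from *Cldn6* through *Ctnnb1*, *Ctnna1* and *Ocln* to *Cdh1* overlapped. Among all tested genes, the mean level of *Cldn4* stood at percentile 94.4, that of *Cdh1* at 79.2 and that of *Tjp1* at 30.5.

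A grouping made with the values known set *Cldn4*, *Cldn6*, *Cldn7*, *Ocln* and *F11r* apart from *Cdh1*, *Ctnnb1*, *Ctnna1* and *Tjp1*. It does not follow the type of junction, since ZO-1, the product of *Tjp1*, is a scaffold of the tight junction. *Tjp1* lay at -0.43 relative to all genes, so with it included the tight junction members were not all above the median. Set against all genes, the median of the log2 fold changes was 0.69 for the 5 membrane genes of the tight junction and -0.32 for the other 4. All 5 of the former lay above the median of all genes, and 3 of the 4 latter below it. In every alternative tried, from the scaling to the leaving out of a library, the 5 genes stayed above the median of all genes of that alternative. The alternatives used the same libraries whose values were known when the grouping was made, so they are not a test of it. The relative median of the 5 was lowest, at 0.44, without oEV-EMT 1. The longest annotated transcripts of the 5 measure 1335 to 4052 bases and those of the other 4 measure 3623 to 7049 bases. With the trend on transcript length removed in each library, a choice made after seeing the data, the relative medians were 0.59 and -0.26.

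Ratios between 2 members within a library do not depend on the scaling between libraries, and were also chosen after seeing the values. Of the 36 pairs of members, 17 had ratios without overlap between the groups, or 47.2%, against 19.2% of all pairs of tested genes. The pairs share genes and are not independent, and the share follows from changes already seen in the single genes, so it is not a separate test. Of the 21 pairs without *Cldn4* and *Ocln*, 8 were without overlap. In 15 of the 17, a membrane gene of the tight junction was higher in oEV-EMT relative to *Cdh1*, *Ctnnb1*, *Ctnna1* or *Tjp1*, out of 20 such pairs. The other 2 were *Cldn4* relative to *Cldn7* and to *F11r*. None of the 6 pairs within *Cdh1*, *Ctnnb1*, *Ctnna1* and *Tjp1* was without overlap.

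Relative to the values, the widest gap between the groups was that of *Cldn4* over *Cdh1*, whose FPKM ratio was 10.0, 9.37 and 8.97 in oEV-EMT and 2.32, 2.67 and 4.76 in oEV-ctrl. The 3 oEV-EMT pools, which differed more than 2 times in *Cldn4* itself, thus lay close together once *Cldn4* was set against *Cdh1*. The oEV-ctrl pools did not draw together in this way. Their mean ratio was 3.25 ± 1.32, against 9.46 ± 0.539 in oEV-EMT (SD, n = 3 each). *Ocln* over *Tjp1* was 9.24, 11.6 and 12.1 in oEV-EMT and 5.36, 4.01 and 4.02 in oEV-ctrl. *Ocln* over *Cdh1* was 0.84, 1.14 and 1.32 in oEV-EMT and 0.495, 0.429 and 0.390 in oEV-ctrl. Both ratios of *Ocln* were higher in every oEV-EMT pool. *F11r* over *Cdh1* was 6.01, 6.74 and 6.89 in oEV-EMT and 3.14, 3.34 and 5.02 in oEV-ctrl, without overlap although *F11r* alone overlapped. *Tjp1* over *Cdh1*, by contrast, had a mean of 0.0996 in oEV-EMT and 0.0988 in oEV-ctrl, and lay between 0.0909 and 0.109 in all 6 pools.

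**Figure D3:**
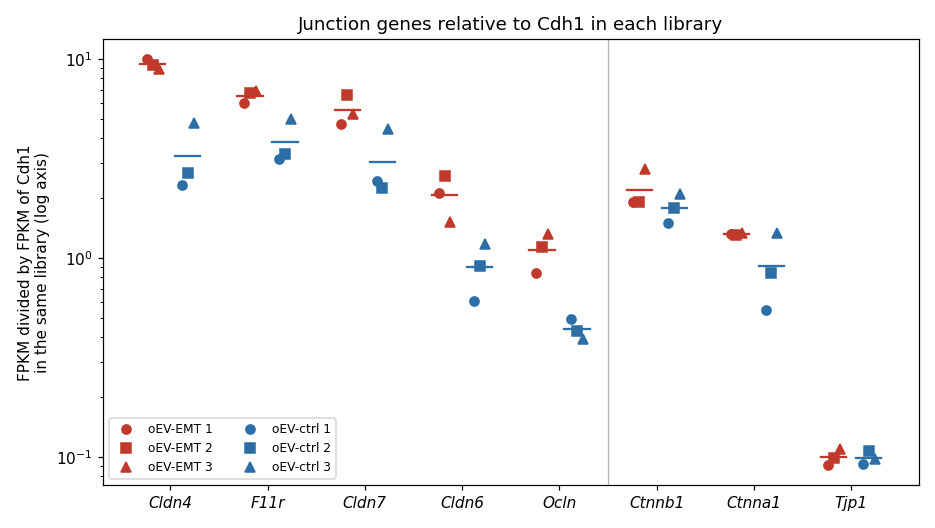
FPKM of the other 8 junction genes divided by the FPKM of *Cdh1* in the same library, on a log axis, for the 3 oEV-EMT pools (red) and the 3 oEV-ctrl pools (blue), with a bar at each group mean. The 5 membrane genes of the tight junction, left of the grey line, show no overlap between the groups, and *Tjp1* over *Cdh1* is near 0.1 in all 6 pools.

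Over the 6 libraries, log2(FPKM + 1) of *Cdh1* and *Tjp1* had a Pearson correlation of 0.98, and *Cldn7* and *F11r* one of 0.95. The 3 claudins and *F11r* were correlated with one another at 0.87 to 0.95, and *Cdh1* with these 4 at -0.09 to 0.21. *Ctnna1*, however, was correlated with these 4 at 0.78 to 0.83, but with *Cdh1* at 0.18 and with *Tjp1* at 0.04. *Ocln* was correlated with the 4 at 0.60 to 0.75. These correlations describe 6 points that share library, depth and group. The library oEV-EMT 1, the deepest as read from low values, had the highest value of its group in 9 of the 9 genes. Over all tested genes the median deviation of oEV-EMT 1 from the gene's mean of the 6 libraries was 0.17 on the log2 scale. The library oEV-EMT 3 had the lowest value of its group in 8 of the 9. The part of depth in these orders was not tested. Of 9586 other protein-coding genes, *Sult2b1*, *Gpatch2*, *Tut1*, *Pfkl* and *Plk1* followed the mean of the 9 genes most closely, with correlations of 0.99 to 1.00 over the 6 libraries. In all, 168 genes reached a correlation of 0.95.

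Of 33 other tight junction genes, 16 were expressed highly enough to be tested. With limma 0 passed the adjusted threshold, 1 was higher and 0 were lower with an unadjusted p up to 0.05, and 2 were higher without overlap. Among all genes 12.8% were higher by that p and 18.1% without overlap, so both counts of the 16 were below the shares of the whole table. Their median relative to all genes was -0.08. *Jam2*, another junctional adhesion molecule, had 15.4, 12.0 and 12.5 FPKM in oEV-EMT and 5.56, 7.08 and 8.99 in oEV-ctrl, without overlap (log2 fold change 0.81, standard error 0.24, adjusted p = 0.175 from limma). *Esam*, an adhesion molecule of the same family, did not overlap either, at 1.62 to 2.70 in oEV-EMT against 0.658 to 1.60 in oEV-ctrl. The claudin *Cldn3* overlapped, with 19.5, 33.8 and 20.2 FPKM in oEV-EMT and 27.2, 14.0 and 23.8 in oEV-ctrl, and *Cldn1*, *Cldn2* and *Cldn16* were listed at 0 in all libraries. *Ybx3*, a factor known to bind ZO-1, and *Cxadr*, the coxsackievirus receptor, overlapped as well, with log2 fold changes of 0.05 for *Ybx3* and -0.14 for *Cxadr*. *Cgn*, the ZO-1 partner cingulin, was at 20.3 to 23.6 FPKM in 5 libraries and at 1.18 in oEV-EMT 3. The log2 fold change of *Cgn* was thus -1.09, with 1.01 as its standard error, and 0.05 without oEV-EMT 3. After median-of-ratios scaling *Cgn* was lower without overlap, at 18.9, 20.8 and 1.19 in oEV-EMT and 22.3, 23.1 and 23.2 in oEV-ctrl.

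Of 30 other adherens junction genes, 21 were tested, of which 3 were higher and 0 lower with an unadjusted p up to 0.05 and 4 were higher without overlap. Both counts of the 21 were near the shares of all genes, 12.8% by that p and 18.1% without overlap. With limma 0 passed the adjusted threshold, and the median relative to all genes was 0.07. *Jup* encodes plakoglobin, the closest relative of β-catenin. It had 9.85, 5.48 and 5.67 FPKM in oEV-EMT and 3.25, 1.53 and 3.77 in oEV-ctrl, without overlap (log2 fold change 1.06, standard error 0.31, adjusted p = 0.174 from limma). *Ctnnal1*, an α-catenin relative, had 11.6, 11.8 and 9.47 against 4.81, 6.08 and 6.19, also without overlap (log2 fold change 0.83, standard error 0.22, adjusted p = 0.164 from limma). These relatives were named because their groups did not overlap, so their contrast with *Ctnnb1* and *Ctnna1*, which overlapped, follows from that choice. *Ctnnd1* and *Arvcf*, of the same list but outside the rule for named genes, overlapped, with log2 fold changes of 0.15 and -0.20. *Wtip* and *Zyx*, LIM domain proteins of the junction, had log2 fold changes of 0.52 for each, without overlap as deposited but with overlap after median-of-ratios scaling. The actin linkers *Actn4*, *Vasp* and *Lima1* overlapped, and *Actn4* rested largely on oEV-EMT 1, with 169.5 FPKM there against 69.4 or less elsewhere.

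**Figure D4:**
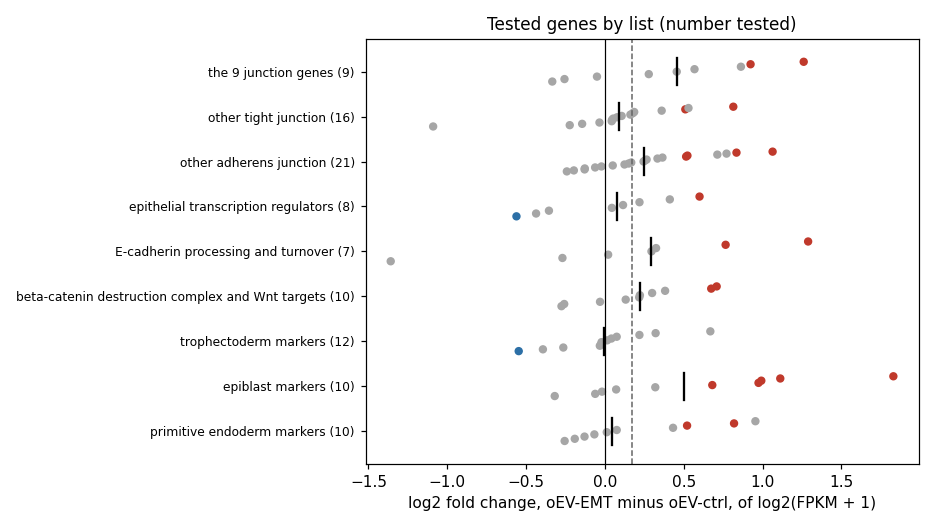
Log2 fold change on the log2(FPKM + 1) scale of the tested genes of each list, with the number tested in brackets. Red and blue points are genes without overlap between the groups, higher and lower in oEV-EMT, grey points overlap, black bars are list medians, and the dashed line is the median of all genes (0.17).

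Among 14 factors known to act on E-cadherin and claudin genes, 8 were tested, with a median of -0.09 relative to all genes. Of the 8, 1 was higher and 1 lower without overlap, against 18.1% higher and 4.34% lower among all genes. The repressor *Snai1* had 2.0, 0.588 and 0.400 FPKM in oEV-EMT and 0.377, 0.122 and 0.246 in oEV-ctrl, too low to be tested. It did not overlap as deposited, but did after median-of-ratios scaling. *Zeb1* was at or under 0.665 in all libraries and *Zeb2* was listed at 0. *Grhl2*, a grainyhead activator of epithelial genes, had 3.77, 16.9 and 11.9 FPKM in oEV-EMT and 11.2, 12.2 and 13.3 in oEV-ctrl, with overlap. Its relative *Grhl3* was higher without overlap (log2 fold change 0.60, adjusted p = 0.287 from limma). *Esrp1*, an epithelial splicing factor, was at 3.87 to 6.44 FPKM in oEV-EMT and 7.5 to 8.56 in oEV-ctrl, lower without overlap (log2 fold change -0.56, adjusted p = 0.288 from limma).

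Of 8 genes for the processing and turnover of E-cadherin, 7 were tested and 2 were higher without overlap, against 18.1% of all genes. *Ncstn*, the nicastrin subunit of γ-secretase, which cleaves E-cadherin, had 11.8, 5.63 and 3.30 FPKM in oEV-EMT and 1.19, 1.98 and 2.83 in oEV-ctrl (log2 fold change 1.29, standard error 0.38, adjusted p = 0.190 from limma). *Pcsk7*, a convertase that cuts protein precursors, had a log2 fold change of 0.77, with 1.42 both in the lowest oEV-EMT and in the highest oEV-ctrl library after rounding. On the signalling side of β-catenin, 10 of 19 genes were tested and 2 were higher without overlap, near the 18.1% of all genes. These were *Myc*, with 22.7, 12.7 and 17.1 FPKM against 10.4, 9.29 and 10.4, and *Ccnd1*, with 2.48, 1.53 and 1.04 against 0.710, 0.515 and 0.705. Both respond to many signals besides Wnt. *Axin2*, the more specific Wnt target, was at or under 0.356 FPKM in all libraries.

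In pooled embryos, fewer cells of a type and less RNA per cell cannot be told apart. Of 12 tested trophectoderm markers, 0 were higher and 1 lower without overlap, and the summed FPKM of the 13 listed was 5048 to 7213 in oEV-EMT and 7169 to 7514 in oEV-ctrl. Among all genes 18.1% were higher and 4.34% lower without overlap. Of 10 epiblast markers, 5 were higher without overlap and 3 had negative log2 fold changes, among them *Sox2* at -0.32, with sums of 198 to 327 in oEV-EMT and 97.6 to 148 in oEV-ctrl. Of 10 primitive endoderm markers, 2 were higher without overlap, with sums of 147 to 285 in oEV-EMT and of 254 or less in oEV-ctrl. The sums of the epiblast markers did not overlap, and their part in the difference of *Cldn4* and *Ocln* was not tested. Of 12 markers of cumulus cells, which surround the oocyte, *Ptx3*, *Inhba*, *Amh*, *Cyp19a1* and *Fshr* were listed at 0 throughout and 3 were tested. Of these, *Amhr2* was higher without overlap (log2 fold change 0.63) and *Cyp11a1* lower (log2 fold change -0.44), while *Nr5a2*, at 4.93 to 8.79 FPKM, overlapped and made up most of the summed level. That sum was 7.27 to 9.63 in oEV-EMT and 9.37 to 11.5 in oEV-ctrl.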

How the data were processed

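The authors isolated polyadenylated RNA from 6 pools of blastocysts, aligned the reads, with mm10 named in the submitters' processing notes, and assembled transcripts with StringTie. The aligner and the annotation are not given in the sources used here. They deposited 1 FPKM value per gene and library. Their methods name TPM, but the sums per library ran from 1293175 to 1551567 and so are not TPM. Of 55774 rows, 287 are unannotated, and 55141 identifiers matched GENCODE M21 (GRCm38), the source of coordinates and lengths.

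Genes with at least 1 FPKM in at least 3 libraries were fitted as log2(FPKM + 1) with limma 3.58.1 (R 4.3.3; trended, robust variance) and adjusted by Benjamini-Hochberg over all genes. On this scale changes of low genes are understated. The fit was tested on simulated data. Figures were drawn with matplotlib 3.10.9. A count model was planned only for counts and was not run. Depth was read from the commonest ratio between libraries of values under 0.3. Sequence shared between genes was searched as identical stretches of 50 bases.

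The 9 members and all lists were chosen with earlier results of these data known. Named genes are the 9 members, the 4 highest of each wider junction list, up to 3 (junction lists) or 2 (other lists) in each direction without overlap, by log2 fold change, and *Snai1*, *Zeb1*, *Grhl2* and *Axin2*. The 5 genes most like the members were taken by Pearson correlation. Alternatives covered scaling, pseudocount, filter, variance model, library weights, a replicate block, transcript length and leaving out each library.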

Additional observations from a re-analysis of the deposited data

How the results depend on the processing

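Of the 9 members, 0 passed the adjusted threshold in any alternative but the weighting of libraries by quality, where 1 did, *Ocln*, with a log2 fold change of 1.04 and an adjusted p-value of 0.0499 (limma), and with it 1 of the 29 named genes. The adjusted p-value of *Cldn4* ran from 0.0562 to 0.609 and that of *Ocln* from 0.0499 to 0.609 over the alternatives. Of the 37 other junction genes tested, 0 passed throughout. Over all genes, 0 passed as deposited, 104 with the weights, 21 with the replicate block, 17 without oEV-ctrl 3, 4 without oEV-EMT 1 and 1 without oEV-EMT 3. With an unadjusted p up to 0.05, 1527 genes were higher and 304 lower as deposited, against 769 and 770 after median-of-ratios scaling, where 2 members, *Cldn4* and *Ocln*, were higher and 0 lower.

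The values do not settle whether replicate numbers pair the samples. The correlations of deviations were 0.12, -0.04 and 0.04 for the 3 equal numbers, and -0.13 to 0.12 for unequal numbers. With the replicate block 0 of the 9 members and 0 of the 29 named genes passed, and *Cldn4* had an adjusted p-value of 0.139 (limma). The block changed no call on a named gene.

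Some log2 fold changes turned in sign, not all of them near 0. *Ctnnb1* was 0.0424 with all libraries scaled to a fixed total and 0.0578 with that total taken without unannotated entries, and ran from -0.21 to 0.0601 with each library left out. *Ybx3* was -0.14 after median-of-ratios and -0.21 after upper quartile scaling and -0.22 with the length trend removed, and ran from -0.0462 to 0.22 with a library left out. *Cldn3* was -0.0108, -0.0786 and -0.061 in these 3 settings and ran from -0.10 to 0.36. *Vasp* was -0.0081 after upper quartile scaling and -0.0233 with the length trend removed. *Lima1* was -0.14, -0.20 and -0.0768 in the 3 settings and -0.0431 with weights, and ran from -0.20 to 0.25. *Grhl2*, at -0.36 as deposited, was 0.12 with weights and ran from -0.75 to 0.20, the latter without oEV-EMT 1. *Cgn*, at -1.09 as deposited, ran from -1.67 to 0.0538, the latter without oEV-EMT 3. The causes were not tested. Read totals are unknown, so no counting interval is given.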

Other observations

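*Adam10*, a sheddase of E-cadherin, fell outside the rule for named genes and was chosen after its values were seen. Its FPKM was 1.38, 0.749 and 0.743 in oEV-EMT and 7.04, 1.14 and 6.12 in oEV-ctrl. The oEV-ctrl libraries thus split, with oEV-ctrl 2 inside the range of oEV-EMT. After median-of-ratios scaling the groups did not overlap, with 1.24 in oEV-ctrl 2 and 1.17 in oEV-EMT 1. The log2 fold change of *Adam10* was -1.36 (standard error 0.48, adjusted p = 0.253 from limma).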
